A study of Mus musculus with 6 samples.

Results

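Transcript levels of 10 hypoxia-response genes that encode no glycolytic enzyme (*Ankrd37*, *Ndrg1*, *Kdm3a*, *Ddit4*, *Mxi1*, *Bhlhe40*, *Adm*, *Stc2*, *Hilpda* and *Cited2*) were compared between PPARγ2 K382Q- and PPARγ2 K382R-overexpressing mouse cells. The genes were taken by symbol from a list of known responders to low oxygen that was drawn up with earlier results of these data known, so their counts and medians are descriptions and not independent evidence. All 10 were found among the 56884 genes quantified in each library, and all 10 were among the 15426 genes that were tested. The cells were immortalized stromal vascular fraction (SVF) cell lines from mouse subcutaneous white adipose tissue, that is, adipocyte precursors grown in culture. Both groups carried HA-tagged PPARγ2, the adipogenic nuclear receptor, delivered by retrovirus and kept by puromycin selection. They differed in 1 lysine of that protein, K382, which was replaced by glutamine in K382Q to mimic acetylation and by arginine in K382R to mimic the deacetylated form. RNA was taken on day 2 of beige adipocyte differentiation, with 3 replicates of each mutant. The medium of both groups held the PPARγ agonist rosiglitazone (0.5 µM), dexamethasone (2 µg/mL), isobutylmethylxanthine (500 µM), T3 (1 nM), insulin (5 µg/mL) and indomethacin (125 µM). No group with wild-type PPARγ2 or without virus was analysed here, and no group was given a different oxygen level. Every value below therefore sets one mutant line against the other. The labels do not say whether the replicates came from separate transductions, so the line and the mutation cannot be told apart, and the p-values measure only the spread between these samples.

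In the response to hypoxia, prolyl hydroxylases of the EGLN family use oxygen to mark the HIF-α subunits for destruction by the VHL ubiquitin ligase. When oxygen is short, HIF-1α or HIF-2α persists, pairs with ARNT and binds short DNA cores of the form ACGTG or GCGTG beside its target genes. Glycolytic enzymes are the best known targets, but others act on lipid storage, growth signalling, chromatin, transcription and secreted signals, and these are the genes described here. Several of them also answer to other inputs that the differentiation medium holds, such as glucocorticoid and cAMP signalling. In adipose tissue, HIF signalling is known for its part in the response to poorly perfused, expanding fat.

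The promoter-side sequences are shown because they hold the HIF core letters in different arrangements and belong to genes with different results. *Ankrd37* and *Adm* were both higher in K382Q cells, and *Stc2* and *Cited2* were not. The sequences come from the RefSeq promoter windows of 300 bases (250 before and 50 after an annotated start) on GRCm38.p6. Each window matched GRCm39, the build of the deposited tables, at exactly 1 place, and the coordinates are those of that match. The 250 bases before the start are printed 5′ to 3′ on the gene's strand, with *Stc2* cut to 187 bases where a GENCODE M39 exon of the gene begins. Capitals mark a match to the core ACGTG on either strand (which reads CACGT when it lies on the other one), and likewise a match to the other core, GCGTG (which then reads CACGC).
Ankrd37, chr8:46452888-46453137, minus strand: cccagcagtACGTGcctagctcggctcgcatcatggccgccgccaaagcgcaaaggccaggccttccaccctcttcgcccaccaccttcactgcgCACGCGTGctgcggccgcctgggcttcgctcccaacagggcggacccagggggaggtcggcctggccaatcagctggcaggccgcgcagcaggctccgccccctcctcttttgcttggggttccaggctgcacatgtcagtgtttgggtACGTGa
Adm, chr7:110226614-110226863, plus strand: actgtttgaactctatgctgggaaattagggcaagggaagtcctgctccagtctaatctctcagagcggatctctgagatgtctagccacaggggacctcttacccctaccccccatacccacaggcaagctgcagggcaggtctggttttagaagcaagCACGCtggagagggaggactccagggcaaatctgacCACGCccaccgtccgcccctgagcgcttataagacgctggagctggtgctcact
Stc2, chr11:31320125-31320311, minus strand: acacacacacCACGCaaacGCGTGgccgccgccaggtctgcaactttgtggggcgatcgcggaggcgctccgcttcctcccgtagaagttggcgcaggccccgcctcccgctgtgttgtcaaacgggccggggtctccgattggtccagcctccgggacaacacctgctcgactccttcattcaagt
Cited2, chr10:17598726-17598975, plus strand: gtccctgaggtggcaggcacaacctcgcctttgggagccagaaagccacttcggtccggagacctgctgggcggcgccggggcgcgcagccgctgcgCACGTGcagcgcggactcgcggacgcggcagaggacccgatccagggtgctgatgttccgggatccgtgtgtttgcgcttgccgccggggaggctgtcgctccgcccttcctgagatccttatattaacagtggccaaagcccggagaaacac
In the GENCODE M39 annotation the *Ankrd37* stretch lies inside the span of *Ankrd37* itself, because other transcripts begin further upstream, and 24 of its 250 bases are exonic. It also lies within the span of *Lrp2bp* on the other strand. The *Adm* stretch shares 6 bases with an exon of *Adm*, and all 250 bases with an exon of the antisense long non-coding RNA *Gm72687*. It also shares 49 bases with an exon of *Gm28863*, another antisense long non-coding RNA. The 250 bases from which the *Stc2* stretch was cut lie within the span of the long non-coding RNA *Gm35012*, on the other strand. The *Cited2* stretch shares 10 bases with an exon of *Cited2*. *Ankrd37* held the most core matches of these stretches, with ACGTG 241 bases and 6 bases before the start and GCGTG on both strands in between, in overlapping letters that begin 155 and 152 bases before it. *Adm* held GCGTG on the minus strand 90 and 54 bases before its start. In *Stc2* the matches sat 240 bases before the start on the minus strand and 231 bases before it on the plus strand. The *Cited2* match was the palindromic E-box CACGTG, which reads as ACGTG on both strands and begins 153 bases before the start. The bHLH proteins that bind an E-box include the products of *Bhlhe40* and *Mxi1*.

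The RefSeq table held 8 of the 10 genes, with 13 windows between them, while *Ndrg1* and *Bhlhe40* were not in it. ACGTG or GCGTG, on either strand, was found in 10 of the 13 windows, and each of the 8 genes had at least 1 window with it. Among all 32851 windows of that length 43.8% held either core. Taken singly, ACGTG was found in 6 of 13 windows against 19.6% of all, and GCGTG in 7 of 13 against 32.4%. Both cores contain a CpG, the windows were not matched for base composition, and several windows belong to 1 gene, so these shares are descriptions. The E-box CACGTG was found in the *Cited2* window alone, against 7.2% of all windows. The PPAR response element, as a perfect direct repeat spaced by 1 base, was found in none of the 13 windows and in 13 of all windows. The cAMP response element TGACGTCA was in none of the 13 and in 1.8% of all. A match is a run of letters and not evidence of binding, which was not measured. *Stc2* and *Cited2*, the genes that were not higher in K382Q cells, held core letters just as *Ankrd37* and *Adm* did.

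The libraries held 5.95 to 8.15 Gb of aligned sequence, as recovered from the ratio of coverage to FPKM, and between 22663 and 23837 genes had a value above 0. Principal component 1 of the log2 values took 61.4% of the variance and separated the mutants, with 3 libraries on each side. Transcripts of *Pparg* were abundant in every library, at 1333, 1164 and 1104 TPM (a length-normalised level, with an equal sum in each library) in K382Q cells and 1590, 1632 and 1612 TPM in K382R cells. The endogenous and the viral transcript cannot be told apart in these values, which fell by 0.43 (log2, limma adjusted p = 0.000977) in K382Q cells. Adipocyte genes were expressed in both groups, but most of the 11 stromal and adipocyte markers were lower in K382Q cells: of 9 tested, 7 fell and 1 rose, with a median log2 fold change of -0.72 (6 and 2 after median-ratio scaling). By the same rule 36.9% of all tested genes were lower and 11.1% higher, with a median of -0.14. After median-ratio scaling 3153 of all 15426 genes were lower and 3057 higher. The 7 markers that fell were of both kinds and included *Pparg*. Among the stromal markers *Pdgfra* fell by 0.88 (adjusted p = 0.000122), *Pdgfrb* by 0.75 (0.000953) and *Ly6a* by 0.72 (1.14e-05). The adipocyte genes were mixed. *Adipoq* fell by 1.28 (7.63e-07) and *Cebpa* by 0.82 (3.95e-05). *Lpl* fell by 0.19 (0.00107) and lost the call after median-ratio scaling (-0.03). *Plin1* was not called (-0.05), and was called higher after median-ratio scaling (0.10). *Fabp4*, the marker of this list that rose, made up most of its summed level. That sum was 50720 to 54320 TPM in K382Q cells and 42870 to 43990 TPM in K382R cells. The call of *Fabp4* held after median-ratio scaling (0.49, adjusted p = 0.000809) and in all 6 leave-one-out fits. Quantile normalization sets genes of equal rank to equal values, so it cannot test a gene with the same rank in every library. There the difference of *Fabp4* was 0.0. *Dpp4* was at 0 in all 6 libraries and *Cd34* under 1 TPM. The part of these markers in the results below was not tested. Of 6 endothelial markers 5 stayed under 1 TPM in all libraries, with sums of 1.63 to 2.23 TPM in K382Q and 1.69 to 1.82 TPM in K382R cells, and *Emcn* at 0. Of 7 leukocyte markers 6 did so (sums of 3.46 to 4.69 and 3.35 to 5.18 TPM), and 3 were at 0 in all libraries, among them *Adgre1* and *Cd3e*. Nearly all of these sums came from *Cd68*, at 4.08 ± 0.614 TPM in K382Q cells and 4.14 ± 0.967 TPM in K382R cells. The 5 pericyte and smooth muscle markers summed to 8.46 to 8.99 TPM in K382Q cells and 17.9 to 19.4 TPM in K382R cells, a difference carried by *Acta2*, at 0.764 ± 0.0824 against 13.2 ± 1.02 TPM (SD, n = 3). Of the others, *Des* rose by 0.57 (adjusted p = 0.00537), from 3.20 ± 0.398 to 5.00 ± 0.475 TPM, and *Cspg4* averaged 2.62 ± 0.774 against 1.75 ± 0.234 TPM without overlap (adjusted p = 0.086). These are bulk samples, in which fewer cells with a transcript and less of it per cell cannot be told apart, and the part of *Acta2*-expressing cells in the results below was not tested.

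Of the 10 genes, 8 rose in K382Q cells relative to K382R cells, *Cited2* fell slightly and *Stc2* did not pass the test. A gene was called when its adjusted p was under 0.05 in limma on log2(TPM + 0.5), with Benjamini-Hochberg adjustment over all 15426 genes. By this rule 11.1% of all tested genes were higher in K382Q cells and 36.9% were lower, and 48.1% changed in either direction. In order of log2 fold change the 8 that rose were *Ankrd37*, *Ndrg1*, *Adm*, *Hilpda*, *Bhlhe40*, *Ddit4*, *Mxi1* and *Kdm3a*. The first 5 also exceeded a 2-fold difference, the threshold in the study's methods, which 1.27% of all genes passed upwards and 2.61% downwards (3.88% in all). None of the 10 was over 2-fold lower. In every one of the 10 genes the libraries of the mutants did not overlap, with 8 higher and 2 lower in K382Q cells, where 14.1% and 42.8% of all tested genes (57.0% in all) showed such a separation. The median log2 fold change of the 10 genes was 1.18, against -0.14 over all genes tested. All fold changes are on the log2(TPM + 0.5) scale, which understates those of genes near 1 TPM.

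**Figure D1:**
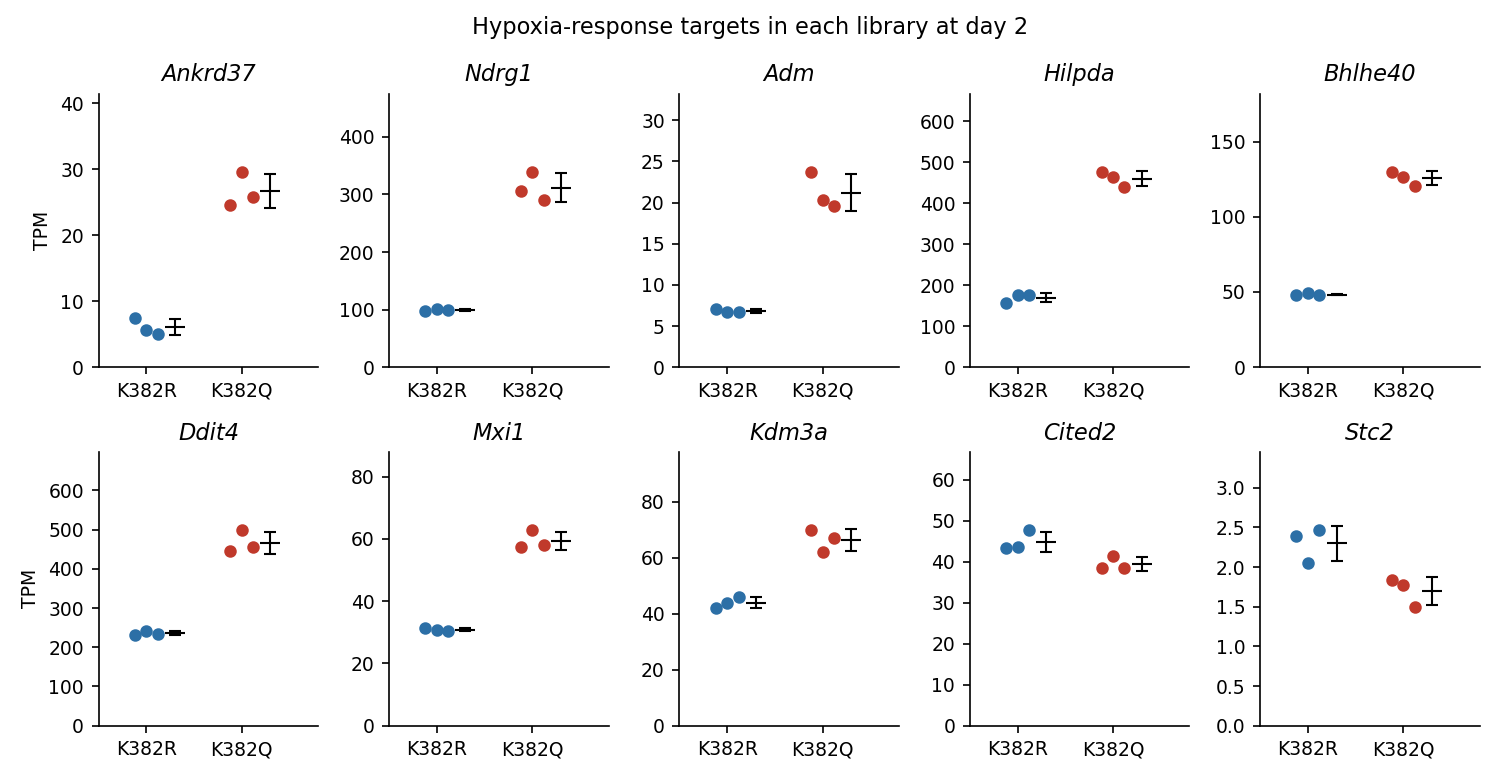
TPM of each of the 10 genes in each library, on a linear axis from 0 that differs between panels, with 1 point per library (3 K382R in blue, 3 K382Q in red) and a bar for each group's mean ± SD. In 8 panels every K382Q point lies above every K382R point, and in the panels of *Stc2* and *Cited2* every K382Q point lies below.

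Among the genes of lipid storage and growth signalling, *Hilpda* encodes a small lipid droplet protein that inhibits adipose triglyceride lipase. Its level was 477, 463 and 440 TPM in K382Q cells and 156, 175 and 176 TPM in K382R cells. The lowest K382Q library was thus well above the highest K382R library, and the means were 459.9 ± 18.6 and 169 ± 11.1 TPM (SD, n = 3), a ratio of 2.72. *Hilpda* rose by 1.44 (log2, SE 0.0529, adjusted p = 1.26e-06). The gene (ENSMUSG00000043421.9) lies at chr6:29272487-29275445 on the plus strand, was covered at a mean depth of 112 to 375 reads per base, and after *Ddit4* was the second most abundant transcript of the 10 in K382R cells. *Ddit4*, or REDD1, encodes an inhibitor of mTORC1 signalling that is induced by hypoxia, glucocorticoids and ATF4. It was at 446, 498 and 455 TPM in K382Q cells and 230.0, 240.3 and 235 TPM in K382R cells. The mutants separated without overlap, at means of 466.5 ± 27.9 and 235 ± 5.14 TPM and a ratio of 1.98. Its rise of 0.99 (log2, SE 0.0447, adjusted p = 3.17e-06) stopped just short of 2-fold. This gene (ENSMUSG00000020108.5, chr10:59785491-59787656, minus strand) was the most deeply covered of the 10, at 591 to 1534 reads per base.

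The transcription and chromatin genes did not all move alike. *Bhlhe40* (DEC1) encodes a bHLH repressor that takes part in the circadian clock and in adipogenesis. Its values were 130.0, 127 and 121 TPM in K382Q cells and 48.0, 49.0 and 47.9 TPM in K382R cells. The replicates of each mutant lay close together, and the means of 126 ± 4.68 and 48.3 ± 0.608 TPM differed by a ratio of 2.60. It rose by 1.37 (log2, SE 0.0371, adjusted p = 3.77e-07), the lowest adjusted p of the 10. The gene (ENSMUSG00000030103.12) lies at chr6:108637590-108643886 on the plus strand and had a coverage of 79.3 to 256. *Mxi1* encodes a MAX partner that opposes MYC at E-boxes. It was at 57.4, 62.8 and 58.0 TPM in K382Q cells and 31.3, 30.8 and 30.5 TPM in K382R cells. The groups lay apart, at 59.4 ± 2.97 and 30.9 ± 0.374 TPM, a ratio of 1.92, and *Mxi1* rose by 0.93 (log2, SE 0.0451, adjusted p = 4.11e-06), under 2-fold. The gene (ENSMUSG00000025025.15, chr19:53298949-53364241, plus strand) has several start sites, and its coverage averaged over the whole gene was only 8.13 to 20.3. Scaled coverage in place of TPM, an alternative chosen after seeing the data, gave *Mxi1* a difference of 0.85.

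*Kdm3a* (JMJD1A) encodes a demethylase of histone H3 lysine 9 that is known for a role in thermogenic and metabolic gene expression. It was at 69.9, 62.1 and 67.2 TPM in K382Q cells and 42.0, 43.9 and 45.8 TPM in K382R cells. The groups were again separate, at 66.4 ± 3.95 and 43.9 ± 1.91 TPM, but the ratio of 1.51 was the smallest among the genes that rose (log2 fold change 0.59, SE 0.0542, adjusted p = 8.56e-05). The gene (ENSMUSG00000053470.14) lies at chr6:71565956-71609974 on the minus strand, with a coverage of 56.2 to 104. *Cited2* encodes a protein that competes with HIF-1α for the coactivators CBP and p300, and so restrains the response. It was at 38.5, 41.4 and 38.5 TPM in K382Q cells and 43.3, 43.6 and 47.7 TPM in K382R cells. The highest K382Q library and the lowest K382R library were only a small step apart, and the means were 39.5 ± 1.65 and 44.9 ± 2.44 TPM, a ratio of 0.880. By the test *Cited2* fell by 0.18 (log2, SE 0.0524, adjusted p = 0.0221), close to the median gene at -0.14. After median-ratio scaling the difference was -0.03 (adjusted p = 0.675), and after quantile normalization it was -0.01 (adjusted p = 0.854). The call was also lost without K382Q replicate 1 (adjusted p = 0.0601), without K382Q replicate 3 (0.0694) and without K382R replicate 3 (0.0685). Over 17 alternatives it held in 9, with adjusted p from 0.0132 to 0.854. The gene (ENSMUSG00000039910.11, chr10:17598966-17601422, plus strand) had a coverage of 76.1 to 112.

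Of the genes for secreted products, *Adm* rose and *Stc2* did not pass the test. *Adm* encodes adrenomedullin, a vasodilator peptide made by many hypoxic cells. Its values were 23.8, 20.3 and 19.6 TPM in K382Q cells and 7.07, 6.66 and 6.68 TPM in K382R cells. Every K382Q library was above every K382R library, and the means of 21.2 ± 2.23 and 6.81 ± 0.229 TPM gave a ratio of 3.12. *Adm* rose by 1.57 (log2, SE 0.0825, adjusted p = 5.63e-06). It lies at chr7:110226868-110229027 on the plus strand (ENSMUSG00000030790.16) and had a coverage of 14.4 to 53.1. *Stc2* encodes stanniocalcin 2, a secreted glycoprotein that inhibits the protease PAPP-A. It was the least abundant of the 10, at 1.83, 1.77 and 1.501 TPM in K382Q cells and 2.39, 2.05 and 2.46 TPM in K382R cells. Here the K382Q libraries were the lower ones and did not overlap the others, with means of 1.70 ± 0.176 and 2.30 ± 0.220 TPM and a ratio of 0.739. The log2 fold change of -0.35 (SE 0.133, adjusted p = 0.0631) did not pass the test. It passed without the intensity trend (adjusted p = 0.0234) and with scaled coverage (-0.37, adjusted p = 0.0312), and over 17 alternatives its adjusted p ran from 0.0234 to 0.207. With a coverage of 2.79 to 5.45 (ENSMUSG00000020303.3, chr11:31307307-31320074, minus strand), the standard error of *Stc2* was close to that of *Ankrd37*, and above those of the other 8 genes.

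The remaining pair, *Ndrg1* and *Ankrd37*, showed the largest folds of the 10 with all libraries in the fit. Without K382Q replicate 2 the log2 fold change of *Adm* (1.596) was slightly above that of *Ndrg1* (1.576). *Ndrg1* encodes an NDRG-family protein that is widely used as a marker of hypoxia. It was at 305.5, 339.5 and 290.0 TPM in K382Q cells and 97.9, 100.7 and 99.8 TPM in K382R cells. The K382R libraries were almost equal while the K382Q libraries were more spread, at 312 ± 25.4 and 99.5 ± 1.42 TPM, a ratio of 3.13. *Ndrg1* rose by 1.64 (log2, SE 0.0551, adjusted p = 8.51e-07). The gene (ENSMUSG00000005125.14, chr15:66801167-66841489, minus strand) had a coverage of 110 to 456. *Ankrd37* encodes a small ankyrin repeat protein of largely unknown function. Its values were 24.6, 29.6 and 25.8 TPM in K382Q cells and 7.41, 5.64 and 5.05 TPM in K382R cells. The groups were far apart, with means of 26.7 ± 2.60 and 6.04 ± 1.23 TPM and a ratio of 4.42. *Ankrd37* rose by 2.07 (log2, SE 0.134, adjusted p = 1.55e-05), more than 99.9% of the genes tested. The gene (ENSMUSG00000050914.17) lies at chr8:46449939-46458744 on the minus strand, and its coverage was 7.43 to 53.7. Of its 1874 exonic bases in GENCODE M39, 1156 (61.7%) are also exonic in *Ufsp2* on the other strand. The strand setting of the counting is not given in the sources used here, so reads of the pair could be shared between them. *Ufsp2* itself was at 60.5, 57.2 and 58.4 TPM in K382Q cells and 48.1, 52.6 and 52.7 TPM in K382R cells. It rose by 0.20 (log2, SE 0.0471, adjusted p = 0.0097), far less than *Ankrd37*, and the part of *Ufsp2* reads in the *Ankrd37* values was not tested. None of the other 9 genes shared more than 8.56% of its exonic bases with another gene's exons.

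**Figure D2:**
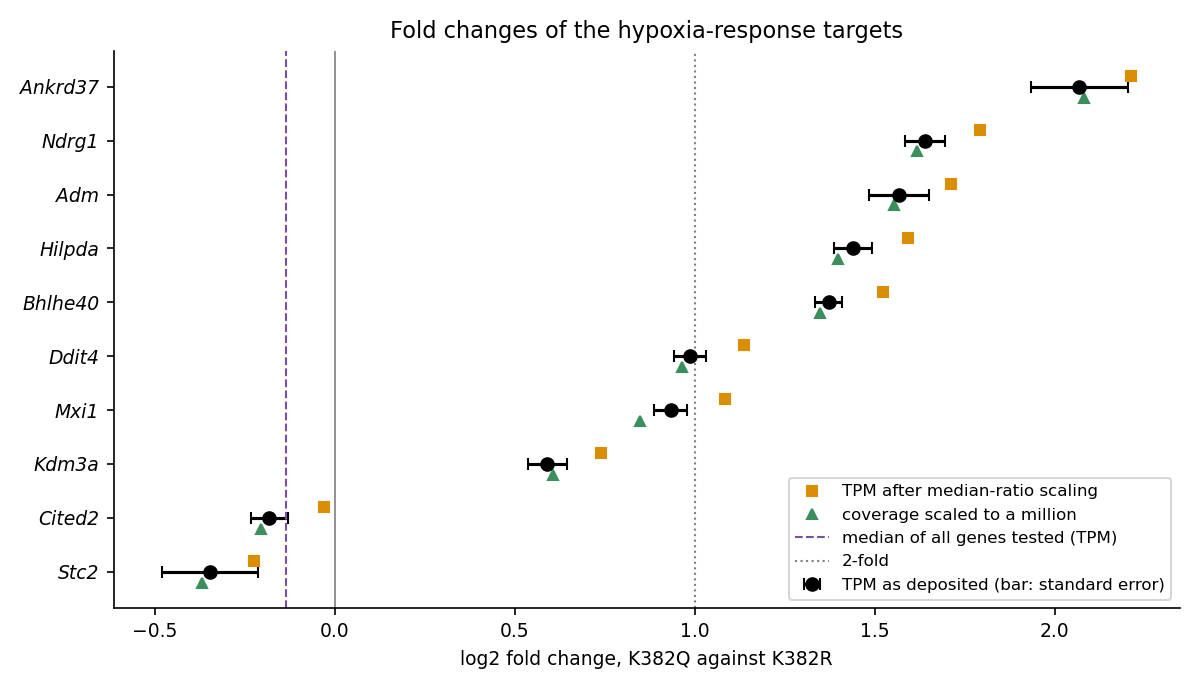
Log2 fold changes of the 10 genes (K382Q over K382R, on log2(TPM + 0.5)) in black with their limma standard errors, with squares for median-ratio scaling, triangles for scaled coverage, a dashed line for the median of all 15426 genes and a dotted line at 2-fold. From *Ankrd37* at 2.07 to *Kdm3a* at 0.59 the 8 genes called higher lie to the right of the dashed line at -0.14. *Cited2*, which was called lower, lies beside that line, and *Stc2*, which was not called, lies to its left.

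Together the 10 transcripts made up 0.157%, 0.165% and 0.152% of all TPM in the K382Q libraries and 0.0666%, 0.0698% and 0.0697% in the K382R libraries. Their summed level was 1516 to 1646 TPM in K382Q cells and 665.9 to 698.0 TPM in K382R cells. *Ddit4*, *Hilpda* and *Ndrg1* carried most of it, from 78.0% to 79.1% in K382Q cells and from 72.7% to 74.0% in K382R cells. In K382R cells *Ddit4* lay above 95.2% of the tested genes by mean level and *Hilpda* above 93.1%, whereas *Adm*, *Ankrd37* and *Stc2* lay above only 34.7%, 33.0% and 21.2%. In K382Q cells *Ndrg1* moved up to 96.8%, from 87.5% in K382R cells, and *Ankrd37* to 64.0%. The genes that rose thus included some that ranked high in both mutants (*Ddit4*, *Hilpda*) and some that ranked low in K382R cells (*Adm*, *Ankrd37*), while *Stc2*, low in both, did not rise. Within a group the coefficient of variation was 3.72% (*Bhlhe40*) to 10.5% (*Adm*) in K382Q cells and 1.21% (*Mxi1*) to 20.3% (*Ankrd37*) in K382R cells. No single K382Q library led the group, since replicates 1 and 2 were each the highest for 5 of the 10 genes. Replicate 3 was the highest for 0 genes. The 8 calls upwards held in all 17 alternatives, including each of the 6 in which 1 library was left out. Without any 1 library the log2 fold change of *Ankrd37* ran from 1.96 to 2.21, that of *Ndrg1* from 1.58 to 1.69 and that of *Kdm3a* from 0.55 to 0.64.

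Paralogs and partners of these genes moved in both directions. Of 30 listed, 25 passed the filter on low values, and 8 of them were higher, 10 lower and 7 not called, with a median log2 fold change of -0.01, beside 11.1% higher, 36.9% lower and a median of -0.14 over all tested genes. After median-ratio scaling, which moves the median of all genes to 0.00, 11 were higher and 4 lower, beside 3057 and 3153 of all 15426 genes. Of the stanniocalcin genes, *Stc1* was at 3.82, 3.95 and 3.46 TPM in K382Q cells and 0.972, 1.19 and 1.20 TPM in K382R cells. *Stc1* rose by 1.39 (log2, adjusted p = 8.06e-05), over 2-fold, while *Stc2* did not pass the test. The level of *Stc1* was thus 2.09, 2.23 and 2.31 times that of *Stc2* in the K382Q libraries and 0.407, 0.582 and 0.487 times it in the K382R libraries, so the more abundant of the pair was *Stc1* in one mutant and *Stc2* in the other. *Cited1*, whose product also binds CBP and p300, was at 14.0, 20.2 and 17.5 TPM in K382Q cells and 9.16, 8.94 and 7.87 TPM in K382R cells. It rose by 0.94 (log2, adjusted p = 0.00063), and its level relative to *Cited2* was 0.364, 0.488 and 0.454 in K382Q cells and 0.212, 0.205 and 0.165 in K382R cells.

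*Adm2*, which encodes a relative of adrenomedullin, rose less than *Adm*, from 15.2 ± 0.782 to 23.3 ± 0.370 TPM (SD, n = 3) and by 0.60 (log2, adjusted p = 7.69e-05). The ratio of *Adm2* to *Adm* was 0.972, 1.17 and 1.18 in K382Q cells and 2.13, 2.40 and 2.16 in K382R cells. Of their receptor genes, *Calcrl* averaged 2.46 ± 0.276 and 2.68 ± 0.146 TPM (log2 fold change -0.11, adjusted p = 0.503). *Ramp2*, a partner of CALCRL, varied widely, at 0.129, 3.05 and 0.190 TPM in K382Q cells and 18.0, 3.46 and 6.48 TPM in K382R cells. It fell by 2.79 (log2, SE 0.758, adjusted p = 0.0175), and that call was lost without K382Q replicate 1, without K382Q replicate 3 or without K382R replicate 1, with log2 fold changes of -3.60 to -2.19 over the 6 leave-one-out fits. *Ramp1*, *Ramp3* and *Ackr3* were too low to test, as were *Mycn* and *Cited4*.

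In the NDRG family *Ndrg2* rose by 0.93 (log2, adjusted p = 5.41e-05), from 9.48 ± 0.477 to 18.6 ± 1.63 TPM. *Ndrg3* rose by 0.14 (adjusted p = 0.0262), a call that was lost in 5 of the 6 leave-one-out fits. *Ndrg4* fell by 1.27 (adjusted p = 0.00102), from 3.04 ± 0.757 to 0.948 ± 0.149 TPM. *Bhlhe41*, the paralog of *Bhlhe40*, rose by 0.99 (adjusted p = 6.02e-05), from 6.62 ± 0.593 to 13.6 ± 0.785 TPM, and remained far below *Bhlhe40* on the same length-normalised scale. *Ddit4l*, the paralog of *Ddit4*, moved the other way from it, and fell by 1.20 (adjusted p = 0.000775) from 2.24 ± 0.359 to 0.690 ± 0.155 TPM. Of the other KDM3 demethylases, *Kdm3b* fell by 0.19 (adjusted p = 0.0109), a call that was lost after median-ratio scaling (-0.04), and *Jmjd1c* was at 36.9 ± 2.59 and 36.4 ± 1.04 TPM (log2 fold change 0.02, adjusted p = 0.812).

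In the network of MYC and MAX, *Mxi1* was the antagonist that differed most. *Mxd3* rose by 0.29 (log2, adjusted p = 0.0104). The levels of the other antagonists, *Mxd1*, *Mxd4*, *Mnt* and *Mga*, gave log2 fold changes of -0.12 (adjusted p = 0.278), 0.03 (0.718), 0.07 (0.549) and 0.08 (0.335), and of these *Mxd4* and *Mga* were called higher after median-ratio scaling. *Myc* was at 70.1, 71.6 and 66.8 TPM in K382Q cells and 96.3, 102.5 and 105 TPM in K382R cells, without overlap, and fell by 0.54 (adjusted p = 4.81e-05). The ratio of *Myc* to *Mxi1* was accordingly 1.22, 1.14 and 1.15 in K382Q cells and 3.08, 3.33 and 3.44 in K382R cells. *Max* fell by 0.24 (adjusted p = 0.00378), *Mlx* by 0.20 (0.0122), *Mlxip* by 0.26 (0.00859) and *Mycl* by 0.43 (0.0201), all 4 of which lost their call after median-ratio scaling, and *Mycl* also in 4 of the 6 leave-one-out fits. Around the lipase that HILPDA inhibits, *Pnpla2*, which encodes it, was at 668 ± 13.7 and 674 ± 13.2 TPM (log2 fold change -0.01, adjusted p = 0.746), and was called higher after median-ratio scaling (0.14). *G0s2*, which encodes its other inhibitor, rose by 0.58 (adjusted p = 2.87e-05), from 693.8 ± 23.0 to 1036 ± 49.6 TPM. *Abhd5*, which encodes its coactivator, fell by 0.18 (adjusted p = 0.00259), and lost the call after median-ratio scaling (-0.03). The droplet coat gene *Plin2* (3288 ± 33.1 against 3061 ± 31.3 TPM) rose by 0.10 (adjusted p = 0.0172), a call that was lost in 3 of the 6 leave-one-out fits. *Plin2* was called higher after median-ratio scaling (0.26, adjusted p = 0.000636) and with FPKM (0.19, adjusted p = 0.00171), and lower after quantile normalization (-0.14).

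**Figure D3:**
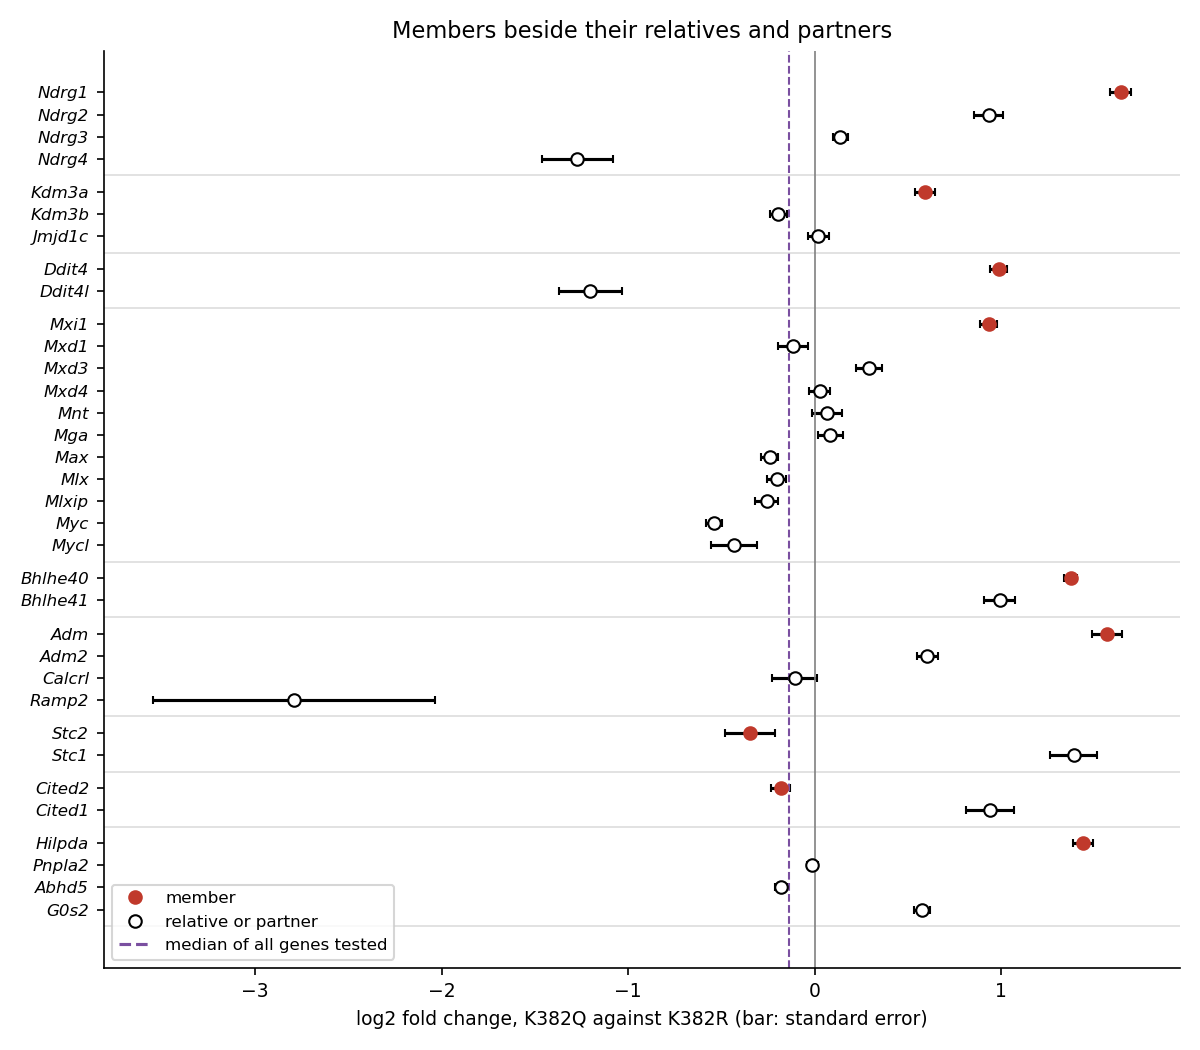
Log2 fold changes (K382Q over K382R, with limma standard errors) of the tested paralogs and partners in white, below the member each belongs with in red, and the median of all genes as a dashed line. *Stc1*, *Bhlhe41*, *Cited1* and *Ndrg2* lie between 0.93 and 1.39, while *Ramp2*, *Ndrg4* and *Ddit4l* lie below -1.20.

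The tested HIF subunits fell, while their regulators were mixed. Of 10 subunits and regulators listed without *Egln1* and *Egln3*, which are HIF targets themselves and were listed with the other hypoxia genes, 8 were tested, and 6 of those were lower, 1 higher and 1 not called, with a median of -0.26, where 36.9% of all tested genes were lower, 11.1% were higher and the median was -0.14. After median-ratio scaling 4 were lower and 1 higher, against 3153 lower and 3057 higher of all 15426 genes. *Hif1a* was at 204, 182 and 187.5 TPM in K382Q cells and 332, 330 and 347 TPM in K382R cells, with no overlap, and fell by 0.81 (log2, SE 0.0456, adjusted p = 7.41e-06). *Epas1*, which encodes HIF-2α, was at 9.27, 8.97 and 9.81 TPM against 12.1, 12.1 and 12.4 TPM and fell by 0.37 (adjusted p = 0.00195). *Hif3a* reached at most 0.0952 TPM and was not tested. *Crebbp*, the gene for CBP, fell by 0.40 (adjusted p = 0.000928). The gene of this list that rose was *Vhl*, by 0.44 (adjusted p = 0.000131), from 46.0 ± 1.70 to 62.6 ± 2.27 TPM. Both of the EGLN genes listed as targets also rose, *Egln1* by 0.79 (adjusted p = 2.31e-06), from 72.1 ± 0.277 to 125 ± 3.72 TPM, and *Egln3* by 1.47 (adjusted p = 2.77e-07), whereas *Egln2* fell by 0.22 (adjusted p = 0.00371), a call that was lost after median-ratio scaling. HIF proteins, which are controlled mainly by their breakdown, were not measured.

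The other hypoxia-response genes outside glycolysis, 26 from general knowledge, gave 16 higher, 1 lower and 9 not called, with a median of 0.42, beside 11.1% higher, 36.9% lower and a median of -0.14 over all tested genes. After median-ratio scaling 21 were higher and 0 lower, beside 3057 and 3153 of all 15426 genes. *Ndufa4l2*, a mitochondrial HIF target, was at 24.6, 23.5 and 22.6 TPM in K382Q cells and 1.75, 1.58 and 1.92 TPM in K382R cells, and rose by 3.42 (log2, adjusted p = 2.93e-07), more than any of the 10 genes. *Ppp1r3c*, which encodes a glycogen-targeting subunit of protein phosphatase 1, rose by 2.91 (adjusted p = 2.70e-06), from 1.83 ± 0.367 to 17.0 ± 1.10 TPM. *Bnip3*, a mitophagy gene, rose by 1.26 (adjusted p = 2.51e-07). *Vegfa* rose by 0.76 (adjusted p = 1.47e-05). At the other end *P4ha2*, a collagen prolyl hydroxylase gene, rose by 0.15 (adjusted p = 0.0141), and *Plod2*, a collagen lysyl hydroxylase gene, fell by 0.14 (adjusted p = 0.0113), a call that was lost with a change of sign after median-ratio scaling (0.01). The genes that were not called included *P4ha1*, *Plod1*, *Lox* and *Loxl2*, which also encode enzymes of collagen modification.

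The 20 glycolysis genes gave 16 higher, 1 lower and 3 not called, with a median of 0.44, beside the same 11.1% higher, 36.9% lower and median of -0.14 over all tested genes, and 1.18 for the 10 genes described here. *Aldoc* rose by 1.48 (adjusted p = 0.000475) and the glucose transporter gene *Slc2a1* by 0.87 (adjusted p = 3.80e-06). *Pfkfb3* rose by 0.24 (adjusted p = 0.0294), a call that was lost in 3 of the 6 leave-one-out fits, and *Pfkfb4* fell by 0.53 (adjusted p = 0.0181), a call that was lost after median-ratio scaling and in 2 of the 6. Of the 20, 1 passed the test and rose over 2-fold, as did 7 of the 26 other hypoxia-response genes, 5 of the 10 and 1.27% of all tested genes. After median-ratio scaling 17 of the 20 glycolysis genes were higher and 0 lower, beside 3057 higher and 3153 lower of all 15426 genes. The difference between these lists was not tested.

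Some of the 10 genes are shared with other inputs, and the counts for the lists of those inputs are to be read against the 11.1% higher, the 36.9% lower and the median of -0.14 of all tested genes. Of 10 glucocorticoid targets 8 were higher and 2 lower, with a median of 0.43. *Klf15* rose by 0.74 (log2, adjusted p = 0.000171) and *Errfi1* by 0.55 (adjusted p = 4.12e-05), while *Sgk1* fell by 0.79 (adjusted p = 9.79e-06) and *Cebpd* by 0.63 (adjusted p = 0.000335). Of 12 genes of the ATF4 list, which counts *Atf4* itself beside its targets, 6 were higher, 3 lower and 3 not called. Their median was 0.02. There *Vldlr*, which is also a HIF target, rose by 1.05 (adjusted p = 4.12e-06) and *Trib3* by 0.75 (adjusted p = 6.35e-06), while *Nupr1* fell by 0.25 (adjusted p = 0.000336) and *Atf3* by 0.21 (adjusted p = 0.00553), both without a call after median-ratio scaling. Of 11 cAMP-responsive genes 10 were tested, with 3 higher, 5 lower and a median of -0.37. *Rgs2* rose by 0.90 (adjusted p = 4.28e-06) and *Pde4d* by 0.71 (adjusted p = 7.81e-05), while *Pde4b* fell by 0.90 (adjusted p = 0.00114) and *Nr4a1* by 0.48 (adjusted p = 0.00997).

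Of 12 PPARγ target genes 5 were higher, 3 lower and 4 not called, with a median of -0.04, beside 11.1% higher, 36.9% lower and a median of -0.14 over all tested genes. *Pdk4*, which encodes an inhibitor of pyruvate dehydrogenase, rose by 1.01 (log2, adjusted p = 3.99e-07) and *Cd36* by 0.43 (adjusted p = 2.24e-05), while *Adipoq* fell by 1.28 (adjusted p = 7.63e-07) and *Acsl1* by 0.47 (adjusted p = 1.69e-05). Of 9 genes of mTORC1 and its restraint, the pathway that DDIT4 inhibits, 2 were higher, 3 lower and 4 not called, with a median of -0.07, and the share lower was near that of all genes. *Txnip* rose by 1.06 (adjusted p = 3.00e-07) and *Deptor*, an mTOR inhibitor gene, by 0.65 (adjusted p = 4.56e-05), while *Rptor* fell by 0.38 (adjusted p = 0.000172) and *Rheb* by 0.32 (adjusted p = 0.00023). After median-ratio scaling the counts of higher and lower genes were 8 and 2 for glucocorticoid targets and 7 and 0 for the ATF4 list. They were 3 and 4 for cAMP-responsive genes, 7 and 2 for PPARγ targets and 2 and 2 for mTORC1 genes. Of all 15426 genes, 3057 were higher and 3153 lower after that scaling. These are transcript levels, and the activity of none of these pathways was measured.

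**Figure D4:**
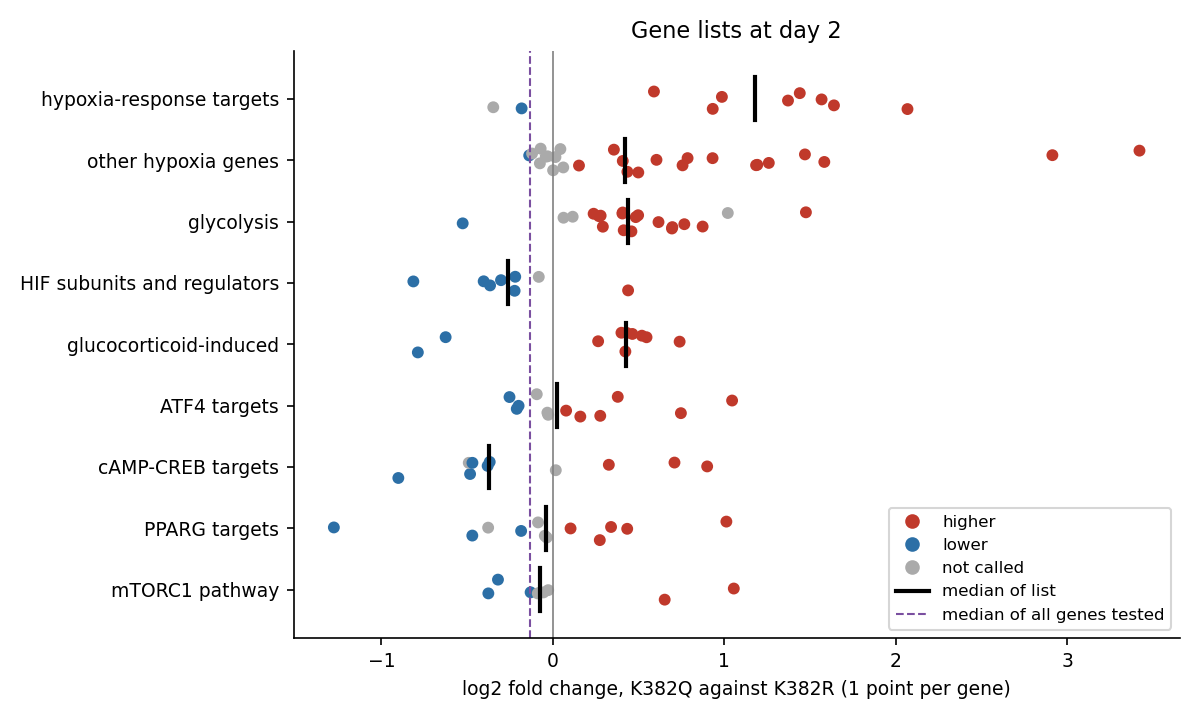
Log2 fold changes (K382Q over K382R) of every tested gene in 9 lists, 1 point per gene, red where higher, blue where lower and grey where not called, with the median of each list as a bar and that of all genes as a dashed line. Among the 9 lists plotted the 10 genes have the highest median, 1.18, followed by glycolysis at 0.44, glucocorticoid targets at 0.43 and the other hypoxia-response genes at 0.42, and cAMP-responsive genes have the lowest at -0.37.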

How the data were processed

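RNA-seq libraries of 3 K382Q and 3 K382R replicates were analysed from 1 gene abundance table per library. Per the submitters' processing notes, the authors aligned reads with HISAT2 to GRCm39 and quantified genes with StringTie; the annotation release is not given in the sources used here. The deposited coverage gives how many reads lie on a base of the gene on average, and is not normalized. The deposited FPKM was scaled to library size by the authors. Its ratio to coverage was shared by a minority of the genes in a library, and *Mxi1* was not among these. The deposited TPM has the same sum in every library, so it gives shares of the RNA and not amounts. The authors' counts were not analysed here, so limma (3.58.1, R 4.3.3) was used on log2(TPM + 0.5), with an intensity trend, for 15426 genes (3 or more of the 6 libraries at 0.5 TPM or above), and p-values were adjusted by Benjamini-Hochberg. Entries repeated for 1 gene ID (3 to 5 per library) were summed, and of repeated symbols the entry with the higher mean was used. Tables and figures were made with Python 3.11.15, pandas 2.3.3, numpy 2.4.6 and matplotlib 3.10.9. Depth was 5.95 to 8.15 Gb, read from that shared ratio, and the SE from limma gives the precision of each gene. On simulated data of the same size, 98 of 103 genes changed by 1 (log2) and 97 of 97 changed by 2 were called in the right direction. There 6 unchanged genes were called, of 15150 in all. Only 200 genes were changed, all with a mean log2(TPM + 0.5) above 2, and the noise was drawn independently for each gene. The simulation thus covers neither genes as low as *Stc2* nor data in which 48.1% of genes were called. Between any 2 libraries at most 0.0117% of genes had identical values. The members and lists were chosen with earlier results of these data known, so no list was tested as a set. Named were all 10 genes, the relatives with a mean of at least 5 TPM or an adjusted p under 0.05, and the 2 highest and 2 lowest called genes of each list, with *Hif1a*, *Epas1*, *Hif3a*, *Vegfa*, *Bnip3*, *Egln3* and *Pparg*. *Calcrl*, *Ufsp2*, *Egln1*, *Egln2*, the uncalled hypoxia genes and the marker genes were named after their values were seen. The alternatives were other pseudocounts (0.1 and 1), no filter or a stricter one (1 TPM), FPKM, array weights, a replicate block, quantile normalization, median-ratio scaling, a fit without the trend, a 1.5-fold threshold, each library left out and, chosen after seeing the data, scaled coverage.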

Additional observations from a re-analysis of the deposited data

How the results depend on the processing

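Of 170 values (10 genes under 17 alternatives), 160 kept their direction and their side of the threshold, 8 lost the call, all of them *Cited2*, and 2 gained one, both *Stc2*. The count of members that were lower was 0 with no filter, FPKM, median-ratio scaling or quantile normalization, 2 with scaled coverage, and 0 to 1 with 1 library left out. Leaving out K382Q replicate 1 or 3, or K382R replicate 3, took the call from *Cited2*, as did a fit that lacked the intensity trend (adjusted p = 0.0502), where *Stc2* took its place. The members' median log2 fold change was 1.25 with FPKM, 1.33 with median-ratio scaling, 1.30 with quantile normalization, 1.16 with scaled coverage, and 1.15 to 1.20 with 1 library left out. Over all genes, 3057 were higher and 3153 lower with median-ratio scaling and 2954 and 3241 with quantile normalization, against 1717 and 5698 on the TPM, because these scalings take the median of all genes from -0.14 to 0.00. Of genes over 2-fold, 287 were higher and 296 lower with median-ratio scaling, against 196 and 403. Quantile normalization gave 277 and 306, and 227 were lower with FPKM. A pseudocount of 0.1 gave 286 higher and 603 lower, and a pseudocount of 1 gave 145 and 298. With a 1.5-fold threshold 577 genes were higher and 1287 lower, and 8 members were higher in place of 5. *Ddit4* exceeded 2-fold in 6 and *Mxi1* in 2 of the 17 alternatives. Replicate numbers do not pair the samples: deviations of same-numbered libraries correlated at -0.018, 0.051 and 0.022. With the replicate block, members gave 8 higher and 1 lower, 5 over 2-fold, and all genes 1600 higher and 5387 lower. With 3 against 3 libraries an exact two-sided permutation test of 1 gene cannot go below p = 0.1, so calls rest on the spread that limma pools across genes.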
